A study of Mus musculus with 3 samples.

Results

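The acetylation landscape of wild-type MIN6 cells is described here from 41457 distinct H3K27ac intervals, all those called on chromosomes 1 to 19 and X in the wild-type library. They were taken from 41490 wild-type intervals on all chromosomes and from 107153 intervals in the 3 lists of the series, and the knockout lists were not used. MIN6 is an insulin-secreting line grown from a mouse pancreatic beta cell tumour. The study made Arid1a mutant clones with Cas9 and compared wild-type, heterozygous and homozygous knockout cells, with 1 library each. The wild-type cells are themselves a single clone: MIN6 cells received Cas9 by lentivirus with blasticidin selection, then an Arid1a guide RNA with puromycin selection, and clones were assigned as wild type by PCR of the locus and by Western blot for ARID1A. On this description the wild-type clone would carry the same agents as the mutants. Its genotype label names no guide, and the names of its intervals carry an extra tag whose meaning is not given. Whether it received an Arid1a guide or another could therefore not be checked here. The cells were grown in DMEM with serum, and their formaldehyde-fixed chromatin was precipitated with the Abcam Ab4729 antibody against H3K27ac. With 1 library there is no replicate error and no test, so all values below are descriptions, and the intervals given for shares are Wilson 95% intervals that cover counting error only.

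H3K27ac is acetylation of lysine on the tail of histone H3, and it marks nucleosomes beside active promoters and active enhancers. Beta cells keep their identity through transcription factors such as PDX1, NKX6-1, NKX2-2, MAFA and NEUROD1, and they share with neurons much of the machinery for electrical activity and regulated secretion, and both lack the repressor REST. Promoters rich in CpG dinucleotides serve mostly widely used genes and developmental regulators, whereas CpG-poor promoters serve mostly genes used in few cell types.

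Over all genes acetylation rose with CpG content, from 7.43% of CpG-poor to 88.3% of CpG-rich promoters, but it did not follow CpG content alone. The sequences of 8 promoters, chosen with earlier results known, show both this rule and exceptions to it. Each is the 250 bases before the listed start on the strand of the gene, 5′ to 3′, from RefSeq on GRCm38.p6, with CG dinucleotides in capitals. The first 4 promoters were acetylated. Ins1, an insulin gene (chr19:52264047-52264296, plus strand), and Iapp, the amylin gene co-secreted with insulin, had CpG-poor promoters, and the Ins1 stretch held 0 CG. Nkx6-1 and Neurod1, beta cell identity factors, had CpG-rich promoters.
Ins1: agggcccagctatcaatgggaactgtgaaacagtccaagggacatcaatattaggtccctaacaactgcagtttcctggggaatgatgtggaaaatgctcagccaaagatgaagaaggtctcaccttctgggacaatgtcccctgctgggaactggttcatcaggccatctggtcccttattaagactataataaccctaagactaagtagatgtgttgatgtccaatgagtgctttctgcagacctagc
Iapp: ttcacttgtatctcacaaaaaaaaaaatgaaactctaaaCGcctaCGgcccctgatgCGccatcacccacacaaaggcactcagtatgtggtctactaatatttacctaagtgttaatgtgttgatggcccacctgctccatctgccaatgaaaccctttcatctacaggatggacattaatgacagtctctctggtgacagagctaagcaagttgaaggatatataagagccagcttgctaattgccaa
Nkx6-1: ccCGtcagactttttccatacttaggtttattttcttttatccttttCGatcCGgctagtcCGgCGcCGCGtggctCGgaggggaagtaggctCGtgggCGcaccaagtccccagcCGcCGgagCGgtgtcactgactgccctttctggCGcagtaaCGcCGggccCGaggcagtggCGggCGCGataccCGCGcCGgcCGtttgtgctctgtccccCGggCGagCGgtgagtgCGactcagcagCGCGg
Neurod1: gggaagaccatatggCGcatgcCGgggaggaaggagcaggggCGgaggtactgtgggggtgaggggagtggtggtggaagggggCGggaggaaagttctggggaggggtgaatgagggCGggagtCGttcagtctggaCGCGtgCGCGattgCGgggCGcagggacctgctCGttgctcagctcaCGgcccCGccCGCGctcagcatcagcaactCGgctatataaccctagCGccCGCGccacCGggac
The other 4 promoters were bare, that is, no interval came within 1 kb of the start. Alb (albumin, a liver product) was CpG-poor like Iapp, with observed to expected CpG ratios of 0.272 and 0.274, and Gcg (glucagon, the alpha cell hormone) stood between the classes at 0.423. Hhex, a delta cell factor (0.878), and Sox1, a neural progenitor factor (1.068), were as CpG-rich as Neurod1 (0.837) and Nkx6-1 (1.179) and were bare all the same.
Alb: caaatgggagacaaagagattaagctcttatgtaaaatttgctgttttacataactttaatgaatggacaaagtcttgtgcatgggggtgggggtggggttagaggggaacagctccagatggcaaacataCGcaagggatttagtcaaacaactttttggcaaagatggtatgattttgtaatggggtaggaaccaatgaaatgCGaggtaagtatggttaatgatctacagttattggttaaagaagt
Gcg: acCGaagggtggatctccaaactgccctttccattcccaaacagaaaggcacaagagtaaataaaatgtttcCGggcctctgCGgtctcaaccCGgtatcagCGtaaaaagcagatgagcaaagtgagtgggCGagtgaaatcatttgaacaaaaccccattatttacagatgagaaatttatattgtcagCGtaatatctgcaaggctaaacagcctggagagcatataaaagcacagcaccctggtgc
Hhex: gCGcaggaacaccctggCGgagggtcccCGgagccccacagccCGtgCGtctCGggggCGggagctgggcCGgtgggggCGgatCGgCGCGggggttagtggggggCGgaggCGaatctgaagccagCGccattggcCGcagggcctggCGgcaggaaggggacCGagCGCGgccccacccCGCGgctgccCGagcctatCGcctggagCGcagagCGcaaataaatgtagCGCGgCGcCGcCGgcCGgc
Sox1: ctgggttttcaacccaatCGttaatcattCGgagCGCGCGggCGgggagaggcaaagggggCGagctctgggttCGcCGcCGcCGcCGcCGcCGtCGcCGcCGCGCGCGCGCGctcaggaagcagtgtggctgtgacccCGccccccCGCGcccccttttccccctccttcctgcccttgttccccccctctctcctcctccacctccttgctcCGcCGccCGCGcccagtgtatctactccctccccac

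A promoter was called acetylated where an interval shared at least 1 bp with the 1 kb either side of a start. Of 21631 protein-coding genes, 11662 had an acetylated promoter, which is 53.9% (53.2 to 54.6%), and this share is the background for every count below. Among them, 17274 genes were placed by their listed starts, of which 54.7% were acetylated. The other 4357, among them Ins2, Mafa, Abcc8 and Slc30a8, have no start in the tables used and were placed by both ends of the gene, of which 50.7% were acetylated, so that for these genes the acetylated end may be the 3′ end. In 4.84% of acetylated promoters every interval lay nearer to a neighbouring gene. The targeted gene, Arid1a, which encodes part of the SWI/SNF nucleosome remodeller, had 3 intervals at its promoter, the widest of 2056 bp, although this does not check the genotype. For 6290 of the acetylated genes the promoter held the gene's only intervals. A bare promoter went with at least 1 interval elsewhere in 2251 of 9969 genes (22.6%), and 8157 genes had no interval at all. Long noncoding RNA genes were acetylated less often, 1817 of 9520 at their starts (19.1%), and 9.44% of 7546 whose start lay over 5 kb from a protein-coding gene start or end.

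The 41457 intervals covered 25 Mb. Promoters held 15770 of them (38.0%, 37.6 to 38.5%) but 46.2% of the bases, 13684 lay inside genes and 12003 between genes. Promoter intervals were the wider and the higher: their median width was 660 bp, against 434 bp inside genes and 439 bp between genes, and their median fold enrichment, the authors' value at the summit over the local background, was 7.32 against 4.92 and 5.41. The share at promoters rose from 18.1% of intervals of up to 250 bp to 62.5% of those over 1000 and up to 2000 bp, and it was 54.6% among the 130 wider intervals. Around the starts of acetylated genes with a single listed start, coverage had 2 maxima with a trough between them. An interval covered the base 300 bp before the start in 61.9% of these genes, the base 100 bp before it in 39.2%, and the base 200 bp after it in 93.1%. The side of the transcribed gene was thus covered more often than the upstream side, and the trough sat just before the start.

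**Figure D1:**
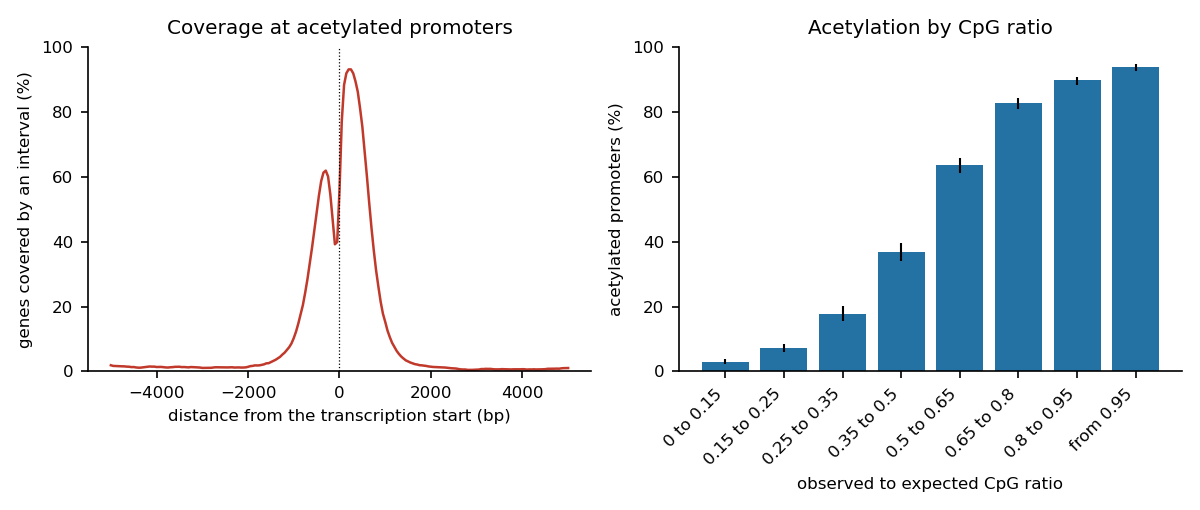
Left: share of acetylated genes with a single listed start that had an interval over each position (y axis, %), by distance from the start (x axis, bp, downstream to the right). Right: share of promoters acetylated (bars, %, with Wilson 95% intervals) by observed to expected CpG ratio. Coverage fell to 39.2% at 100 bp before the start, and acetylation rose with the ratio from 3.02% to 93.9%.

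Beta cell identity factors were acetylated almost throughout. Of 18 beta cell transcription factors, 16 had an acetylated promoter (88.9%, 67.2 to 96.9%) against 53.9% of all genes, and the median acetylated total per gene was 3530 bp against 703 bp. The share is close to that of CpG-rich promoters (ratio from 0.65 on) over all genes, 88.3%. The median CpG ratio of these factors, where measured, was 0.814. Foxa2, a forkhead factor that opens chromatin in endoderm, had 10 intervals summing to 7090 bp. Those away from its promoter lay between genes, 51272 to 94006 bp from its start. Nkx6-1, which keeps beta cells from alpha and delta fates, had 8 intervals and 5196 bp. Nkx2-2, needed to form beta cells, had 6 intervals and 3946 bp, and Isl1, a LIM factor of all islet cells, had 10 intervals and 3786 bp. Glis3, a zinc finger factor of insulin transcription, had 9 intervals and 5608 bp. Intervals assigned to these factors thus lay well beyond their promoters. Those between genes went to the nearest start within 100 kb, so that the gene they serve is not known.

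Mafa, an activator of the insulin genes, had 5 intervals and 3041 bp, of which 2605 bp lay at the ends of the gene. Myt1 (3821 bp), Mnx1 (3630 bp), Rfx3 (3429 bp), Insm1 (2707 bp), Neurod1 (2701 bp), Foxa1 (2110 bp) and Pax6 (1739 bp) were acetylated at their promoters. Pdx1, the master factor of pancreas and beta cell, had a promoter interval of 910 bp and 1519 bp in all, and Hnf4a, the nuclear receptor of a related network, had 975 bp. The 2 bare members still had intervals elsewhere: St18, placed by its ends, had 9 intervals inside the gene, and Rfx6, a factor of islet development, had 6, the nearest of them 7548 bp upstream of its listed start.

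The secretory product and its granules were likewise marked. Of 20 hormone and granule genes 19 were acetylated (95%, 76.4 to 99.1%). Ins1 had 2 promoter intervals of 1146 and 1158 bp on either side of its start and 2 more lying 10327 and 11970 bp upstream. Ins2, the other insulin gene, had 2 intervals of 1588 and 1208 bp and no others. Iapp had an interval of 2441 bp that began 62 bp from its start. Slc30a8, the zinc transporter of insulin granules, had 15 intervals and 10252 bp, rank 75 of all genes, and its promoter interval of 2772 bp was among the widest anywhere. Among the granins and processing enzymes, Chga (6088 bp), Pcsk2 (5957 bp), Scg3 (5554 bp), Cpe (4506 bp) and Scg2 (3938 bp) had the most. Pcsk1 (2839 bp), Pcsk1n (2344 bp), Scg5 (1315 bp), Chgb (1101 bp), Nucb2 (814 bp) and Vgf (702 bp) had less.

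The remaining granule genes were Ptprn2 (6291 bp) and Ptprn (1752 bp), which encode islet autoantigens of the granule membrane, the calcium sensor Scgn (3314 bp) and the granule-docking gene Sytl4 (1608 bp). Ucn3, a peptide gene of mature mouse beta cells, was the only bare member, and its single interval of 318 bp lay 54062 bp from its start.

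Of 16 genes that sense glucose or couple it to secretion, 13 were acetylated (81.2%, 57.0 to 93.4%). The subunits of the ATP-sensitive potassium channel, Abcc8 (5806 bp) and Kcnj11 (1999 bp), were acetylated. So were the calcium channels Cacna1c (15236 bp in 23 intervals), Cacna1d (5696 bp) and Cacna1a (4296 bp), the calcium pump Atp2a3 (4579 bp), the junction gene Gjd2 (6806 bp), the receptors Glp1r (4266 bp) and Ffar1 (1786 bp) and pyruvate carboxylase, Pcx (3833 bp). The promoter intervals of Cacna1c and Cacna1d lay at listed starts other than the first, centred 88361 and 138421 bp downstream of the first. G6pc2, the islet glucose-6-phosphatase, had an interval of 2750 bp at its second listed start. The 3 bare members were not empty: Slc2a2, the glucose transporter GLUT2, had 6 intervals with the nearest 1663 bp upstream, Gipr had 6, and Trpm5 had 2 inside the gene. With a window of 2500 bp either side of the start the count was 15 of 16. 

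All 13 exocytosis genes were acetylated (100%, 77.2 to 100%), with a median of 4191 bp. Cplx2, a complexin that clamps vesicle fusion, had 7290 bp in 11 intervals and a promoter interval of 2180 bp. The synaptotagmin gene Syt13 had 5180 bp in 13 intervals, and the SNARE gene Snap25 had 4900 bp in 5. Rims2 (4851 bp), a scaffold of the release site, Rab27a (4619 bp), and Syt7 (4191 bp) followed. The lowest were Stx1a (741 bp), Cplx1 (682 bp) and Unc13b (645 bp). Paralogs thus differed: Cplx2 and Unc13a (2430 bp) carried several times the acetylated bases of Cplx1 and Unc13b.

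**Figure D2:**
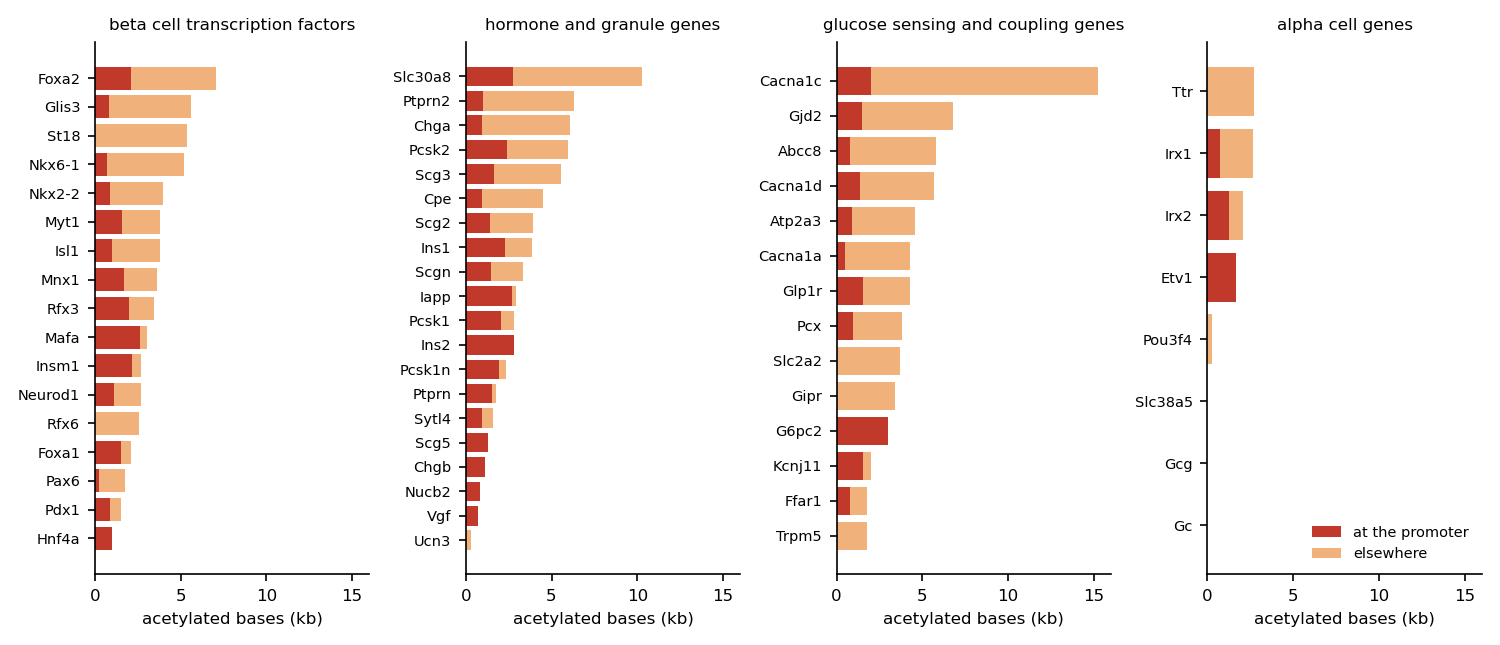
Acetylated bases assigned to each gene (x axis, kb) for members of 4 lists, split into intervals at the promoter (red) and elsewhere (orange). Cacna1c (15236 bp) and Slc30a8 (10252 bp) stand out, and the alpha cell genes Gcg, Gc and Slc38a5 have no interval. Some members are not drawn.

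Other islet cell types were marked in part. Of 10 alpha cell genes, 4 were acetylated (40.0%, 16.8 to 68.7%), a range that includes the 53.9% of all genes. The acetylated ones included the transcription factor genes Irx1 (2651 bp), Irx2 (2079 bp) and Etv1 (1651 bp). The hormone gene Gcg had no interval, and neither had Gc and Slc38a5. Ttr, which encodes transthyretin, was bare at its ends with 2730 bp in 2 intervals elsewhere, and Pou3f4 had a single interval of 265 bp. Of 7 delta, PP and epsilon cell genes only Rbp4 was acetylated, by an interval of 228 bp with a summit pile-up of 16. The hormone genes Sst, Ppy, Pyy and Ghrl were bare, Sst with a single interval of 200 bp and Pyy with 2 intervals elsewhere, and Hhex, Ghsr and Ghrl had none. Of the islet hormone genes named here, the beta cell products Ins1, Ins2 and Iapp were acetylated, and Gcg, Sst, Ppy, Pyy and Ghrl were bare.

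Endocrine progenitor genes were acetylated about as often as all genes, in 6 of 11 (54.5%, 28.0 to 78.7%, against 53.9%). The acetylated ones were Hes1 (6989 bp), Sox4 (6023 bp), Sox11 (2444 bp), Pax4 (1814 bp), Gast (1093 bp) and Fev (985 bp). The Gast call rests on the edge of the window, as its promoter interval came no nearer than 933 bp to the start. Neurog3, which starts the endocrine programme in the embryo, had no interval, and neither had Sox9, Ptf1a or Aldh1a3, while Cck was bare with 3 intervals elsewhere. Of 18 genes that primary beta cells are reported to keep silent, 8 were acetylated (44.4%, 24.6 to 66.3%). This range also includes 53.9%. The 8 were led by Slc16a1, Igfbp4 (2703 bp) and Smad3 (2232 bp), and they included lactate dehydrogenase Ldha (1834 bp), the monocarboxylate transporter Slc16a1 (4962 bp in 10 intervals) and hexokinase Hk1 (1143 bp). The Hk1 intervals lay at a listed start other than the first, the narrower one centred 40034 bp downstream of the first. Hk2, Pdgfra, Rest, Cxcl12 and Maf were among the bare ones, and the Tst promoter was acetylated only through an interval nearer to another gene. Of 15 acinar genes only Bhlha15 (648 bp) was acetylated, and 11 had no interval, Cpa1, Prss2, Pnlip and Reg1 included. Of 12 duct genes 5 were acetylated (41.7%, 19.3 to 68.0%), a range that again includes 53.9%. They were Prom1, Epcam, Car2, Muc1 and Krt8, the last by an interval of 258 bp. Krt7, Krt18, Krt19, Sox9, Spp1 and Cftr were among the bare.

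The neural programme divided by function. Of 21 pan-neuronal genes 20 were acetylated (95.2%, 77.3 to 99.2%), L1cam being bare with no interval. Their median CpG ratio, where measured, was 0.765, in the CpG-rich range. The RNA-binding protein genes Celf4 (17958 bp in 27 intervals) and Rbfox3 (17849 bp in 34 intervals) ranked 10 and 11 of all genes, although the summit at the Rbfox3 promoter held a pile-up of only 21, and the cytoskeletal gene Map2 had 7396 bp. The synaptic adhesion genes Nrxn2 (5709 bp) and Nlgn1 (3311 bp) and the RNA-binding gene Elavl4 (4285 bp) followed. The synaptic vesicle genes Syp (1327 bp) and Syn1 (629 bp) had less than the list's median of 2512 bp, and the tubulin gene Tubb3 was close to it at 2485 bp. Of 20 neurotransmitter genes 7 were acetylated, among them Gad1, Gad2, Tph2, Gria2, Grin1 and Camk2a. The Gad1 interval was 232 bp wide with a summit pile-up of 12, and the interval set of Ddc, the decarboxylase of dopamine and serotonin synthesis, reached 3978 bp without touching its promoter. The transporters Slc17a6 and Slc18a2 had no interval.

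Neural patterning factors were mostly bare. Of 21, 3 were acetylated (14.3%, 4.98 to 34.6%), Lhx2 and Pou3f2 among them, and 13 had no interval. Among the bare were Neurog1, Neurog2, Sox1, Sox3, Dlx1 and Dlx2. Glial genes were acetylated in 2 of 16, among them Mbp (5156 bp), placed by its gene ends, and photoreceptor genes in 0 of 11 (up to 25.9%).

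Programmes of other tissues were mostly bare, with 21 of 218 members acetylated (9.63%, 6.39 to 14.3%). The hepatocyte (13), skeletal muscle (13), endothelial (13), myeloid (14), epidermal (10), adipocyte (9) and bone and cartilage (7) lists had 0 acetylated members, with upper bounds of 21.5 to 35.4%. The lung list stood apart with 4 of 10 acetylated (40.0%, 16.8 to 68.7%), an interval that includes the 53.9% of all genes. Bare promoters did not mean empty genes throughout: 61 of the bare members had an interval elsewhere, 8 of the 13 endothelial genes included, and 138 of the 218 had none. Acetylated members were Cdx2 among intestinal genes, Sct among enteroendocrine hormones, Tshr and Cyp11a1 among pituitary, thyroid and adrenal genes, and Hand1 among cardiac genes. Pax2 (6835 bp in 12 intervals) and Lhx1 (4428 bp) were acetylated among kidney genes, and Zeb1, Zeb2, Snai2 and Twist1 among mesenchymal genes. Klf1 was acetylated among erythroid genes, Klf4 and Lin28a among pluripotency genes, and Gdf9 and Dazl among germline genes. The promoter of Cd4 was acetylated only through a neighbour's interval, as was that of Sftpc, while Foxj1, Hopx and Sftpd were the other lung genes. Several of these rested on narrow intervals with few fragments piled up at the summit, the pile-up explained below: Cdx2 had 14, Cyp11a1 17, Twist1 17, Sftpd 14 and Hand1 22, against a median of 94 over all acetylated promoters. Tbx19, a corticotroph factor, had 6702 bp in 9 intervals although its promoter was bare.

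By contrast, programmes that most cells use were acetylated nearly throughout. All 17 unfolded protein response genes were acetylated, among them Hspa5, the chaperone BiP, and Atf4, Ddit3 and Xbp1, the transcription factors of the response. Atf6 (4021 bp), Ern1 (4014 bp) and Eif2ak3 (3865 bp), which encode the sensors of misfolded protein, had the most acetylated bases. Of 16 immediate early genes 15 were acetylated, with Fos (6757 bp), Jun (5316 bp) and Fosb (5188 bp) leading and Egr3 bare. Of 15 housekeeping genes only Ywhaz, placed by its ends, was bare, with 10 intervals elsewhere, and 77 of 81 ribosomal protein genes were acetylated.

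**Figure D3:**
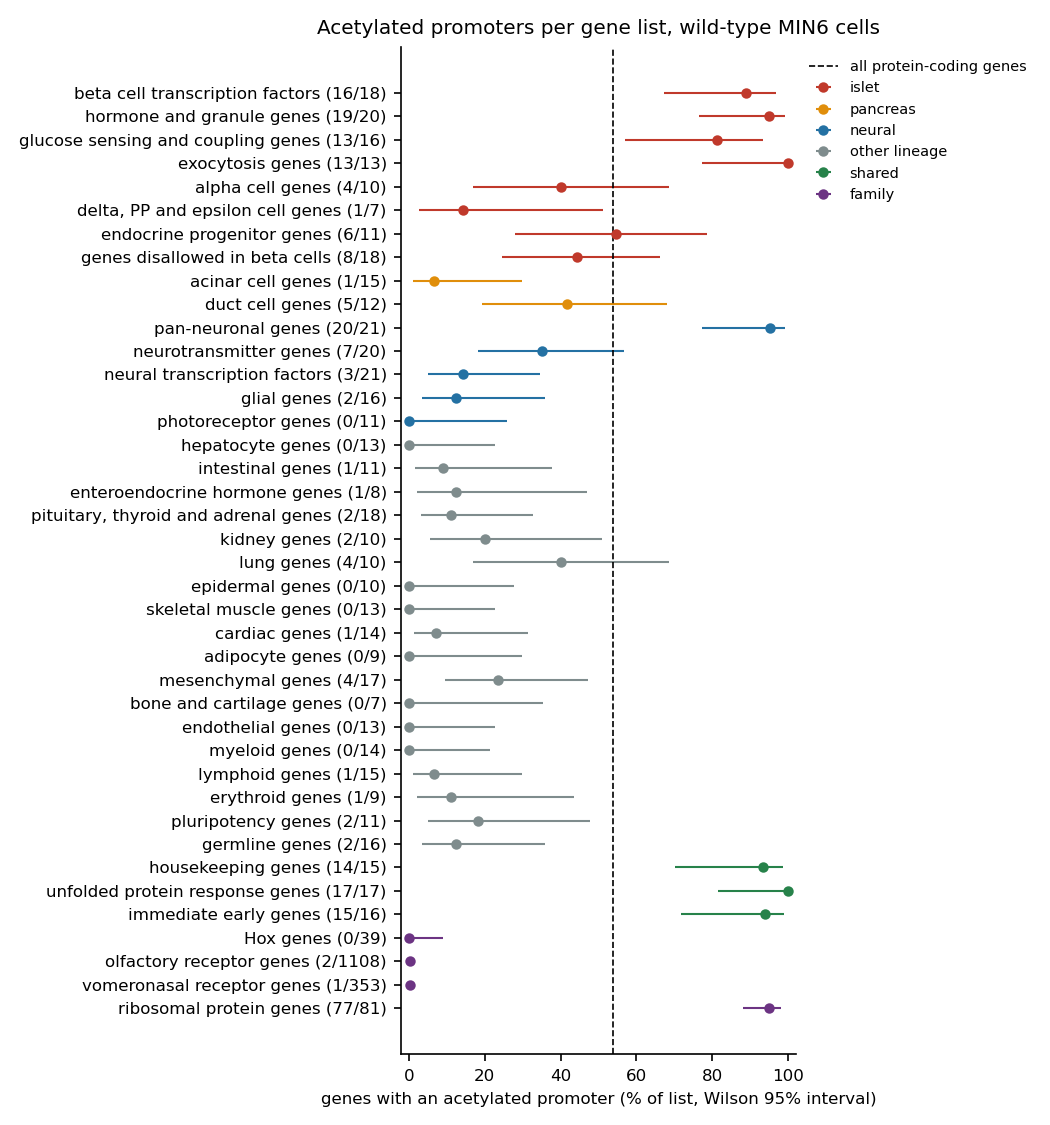
Share of each list with an acetylated promoter (points, % on the x axis, with Wilson 95% intervals), coloured by class, with the number acetylated and the list size on the y axis. The dashed line is the 53.9% of all protein-coding genes. Islet lists of beta cells, pan-neuronal genes and shared programmes lie to its right, and most lists of other tissues near 0.

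Gene families showed the same split between paralogs. Of 39 Hox genes none was acetylated and none had any interval (0%, up to 8.97%). Of 9 Pax genes the acetylated ones were Pax2, Pax4 and Pax6. Of 14 Nkx genes they were Nkx6-1, Nkx2-2, Nkx6-2 and Nkx3-2, while Nkx2-1, Nkx2-5 and 8 others were bare. Of 7 Neurog and Neurod genes they were Neurod1 and Neurod4. Of 19 Sox genes Sox4, Sox11, Sox12 and Sox13 were acetylated, of 6 Gata genes only Gata2, and of 13 Tbx genes Tbx3 and Tbx15. Fox genes were acetylated in 23 of 44, near the background. None of 5 Zic genes was acetylated.

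Among families of excitable cells, synaptotagmins, the calcium sensors of vesicle fusion, were acetylated in 12 of 17 (70.6%, 46.9 to 86.7%), with Syt10, Syt15, Syt16, Syt6 and Syt8 bare, and calcium channel subunits in 14 of 26 (53.8%, 35.5 to 71.2%). Both intervals include the 53.9% of all genes. Potassium channel genes were acetylated in 33 of 92 (35.9%, 26.8 to 46.1%), with Kcnj6 and Kcnip1 leading by acetylated bases. GABA-A receptor subunits were acetylated in 2 of 19, Gabrq among them (10.5%, 2.94 to 31.4%), and ionotropic glutamate receptor subunits in 8 of 16, near the background. Serotonin receptors were acetylated in 1 of 14, Htr1d, and adrenergic receptors in 1 of 9, Adra2a, the receptor through which adrenaline restrains insulin release. Collagens were acetylated in 3 of 44, keratins in 4 of 49, interleukin and interleukin receptor genes in 2 of 37, and BMP genes in 1 of 11 (Bmp1). The machinery families sat at the other end, with proteasome genes at 46 of 48, respiratory complex I genes at 36 of 37, mitochondrial ribosome genes at 76 of 77 and translation initiation factors at 44 of 46. Proton pump subunits, which acidify granules, were acetylated in 16 of 22. The numbered zinc finger genes named Zfp were acetylated in 323 of 394 (82.0%). Olfactory receptors (2 of 1108), vomeronasal receptors (1 of 353), bitter taste receptors (0 of 35) and beta-defensins (0 of 42) were bare with few exceptions.

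**Figure D4:**
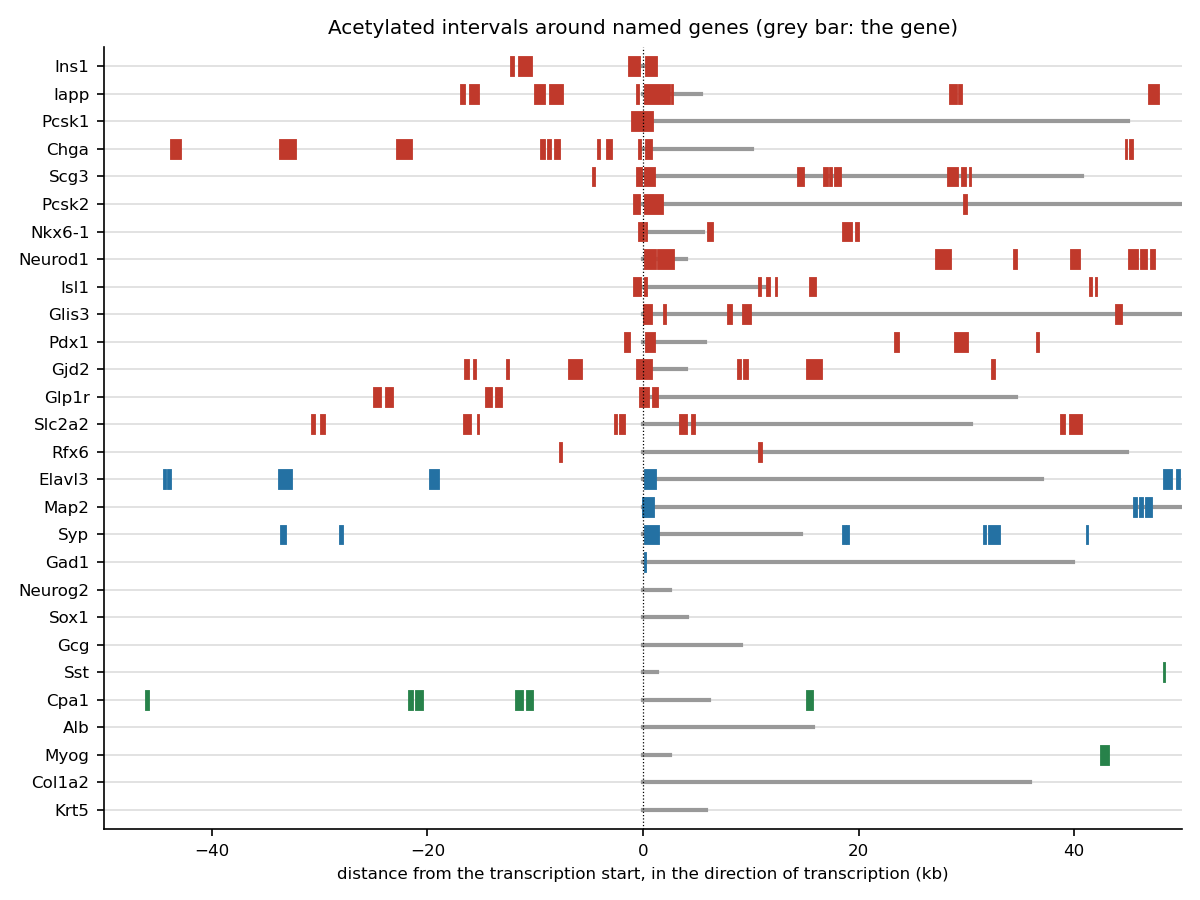
Acetylated intervals (coloured blocks, to scale) within 50 kb of the start of named genes, by distance in the direction of transcription (x axis, kb); red rows are islet genes, blue neural and green others, and the grey bar is the gene (intervals of neighbours are drawn too). Beta cell genes other than Slc2a2 and Rfx6 have an interval at the start, and the Gcg, Alb, Sox1 and Neurog2 rows are empty.

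The genes with the most acetylated bases were long genes, although the bases as a whole were spread over many genes. The 100 highest held 5.43% of the assigned bases, the 1000 highest 27.1%, and 599 genes (2.77%) had over 5000 bp. Gse1 led with 30488 bp in 43 intervals, followed by Maml3, a Notch co-activator (30374 bp, 42 intervals), the RNA-binding gene Msi2 (24583 bp, 45 intervals), Auts2 (23333 bp), Tenm4 (22475 bp) and Camta1 (20790 bp). Asic2, Rere, Chd7, Celf4, Rbfox3, Agap1, Btbd9, Zmiz1, Cacna1c, Stard13, Tead1, Arid1b, Nav2 and Arhgap26 made up the 20 highest, ending at 14528 bp. Arid1b, with 14652 bp, encodes the paralog of ARID1A. The median length of these 20 genes was 404 kb, against 17.3 kb for all genes. Set against length, they separated: acetylated intervals amounted to 8.39% of the Gse1 gene with 10 kb either side, 6.45% of Maml3, 6.16% of Msi2 and 6.05% of Celf4, where the median of 990 genes over 200 kb was 0.629% and that of all genes 1.87%. Auts2 (2.07%) and Asic2 (1.79%) ranked 125 and 156 of the 990 by this measure. Where every interval went to the nearest start instead, only 5 of the 20 stayed among the 20 highest, Chd7 led with 18216 bp, and Gse1 had 17754 bp, Maml3 10989 bp, Msi2 6325 bp and Auts2 8808 bp.

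The widest promoter interval, 2986 bp, lay at Brd2, a reader of histone acetylation, and was shared with H2-DMa. Next came Slc30a8 (2772 bp), Msl1 (2767 bp), G6pc2 (2750 bp), the G protein gene Gnao1 (2682 bp), Prkar1a, the regulatory subunit of protein kinase A (2637 bp), Dstn (2491 bp), and Mboat7 with Tsen34 (2451 bp). Beta cell genes thus took 2 of the 10 places. Fold enrichment named other genes: Galnt10 (21.7), Wdr41 (21.5), Gorab (21.0), Suclg1 (20.9), Egf (20.5), Aldh4a1 (20.3), Cmss1 (20.1), Zfp873 (20.1), Borcs7 (19.9) and Cdca7 (19.8), none of them in the islet lists. The Slc30a8 interval had a fold of 2.64 and that of Pdx1 1.84, the lowest among the beta cell factors when each is taken at its tallest promoter interval.

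The authors' fold and p-value together give the pile-up at each summit, the number of overlapping fragments, and the background it was set against, on the formula that MACS2 uses, for 41456 of 41457 intervals within 0.001 of the deposited −log10 p. Read this way, the Pdx1 summit had a pile-up of 182 over a background of 98.7, and that of Slc30a8 161 over 60.4. Ins1 had 214 over 48.5, Ins2 204 over 70.5, Iapp 198 over 65.8 and G6pc2 229 over 72.1. Galnt10, with the highest fold, had 139 over 5.46. The tallest promoter summits of the 16 acetylated beta cell factors had a median pile-up of 126, above the 94 of all acetylated promoters, but over a median background of 32.5 against 9.09, so that their median fold was 3.83 against 8.81. Hormone and granule genes had 125 over 23.2, unfolded protein response genes 123 over 15.0 and ribosomal protein genes 125 over 13.2. By fold, the promoters of beta cell factors and granule genes thus stood low although their pile-ups were high. By −log10 q islet promoters differed. The highest promoter value was 64.6 at Ins1 and 50.4 at Isl1 but 23.2 at Mafa, against a median of 39.6 over promoter intervals. With only intervals at or above the median −log10 q of 19, acetylated beta cell factors fell from 16 to 10 of 18. The cause of the higher background was not tested.

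**Figure D5:**
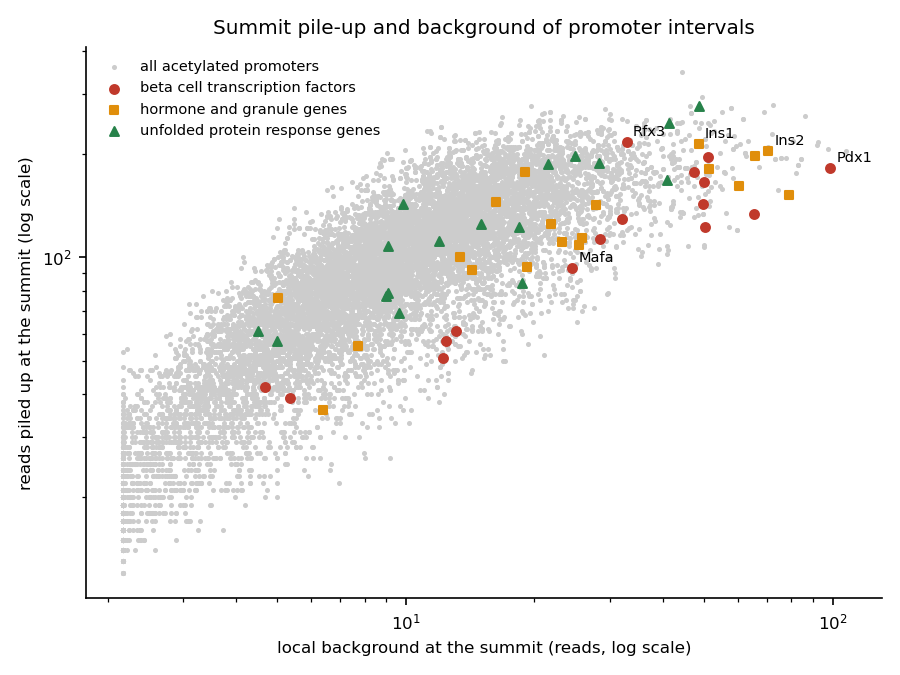
Summit pile-up (reads, y axis, log scale) against the local background (x axis, log scale) for the tallest interval of each acetylated promoter, all genes in grey and 3 lists in colour. Beta cell factors and granule genes lie to the right, with Pdx1 at 182 over a background of 98.7.

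Acetylation followed the CpG content of the 300 bp promoter sequence, taken for the 14513 genes with a single listed start. At an observed to expected CpG ratio under 0.15, 80 of 2645 promoters were acetylated (3.02%, 2.44 to 3.75%), and from a ratio of 0.95 on, 1635 of 1742 (93.9%, 92.6 to 94.9%). The median ratio was 0.802 for acetylated and 0.213 for bare promoters. CpG-poor promoters (ratio under 0.35) were acetylated in 397 of 5345 genes (7.43%), but in 3 of 4 hormone and granule genes: Ins1, Iapp and Sytl4, with Ucn3 the bare one. Over all islet lists the count was 4 of 13. It was 0 of 1 for beta cell factors and 0 of 2 for glucose sensing and coupling genes. The interval at the Iapp promoter was the widest of those at the 397 acetylated CpG-poor promoters. Among CpG-rich promoters (from 0.65 on) 88.3% were acetylated, all 8 such beta cell factors and all 8 such granule genes included. The CpG-rich promoters that were bare numbered 743. Hox genes (0 of 10) and neural patterning factors (1 of 10) were among them, and over 17 families of developmental transcription factors 31 of 71 CpG-rich promoters were acetylated (43.7%, 32.7 to 55.2%), against 5600 of 6303 others (88.8%, 88.0 to 89.6%).

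Short motifs were counted in the same 300 bp on both strands, each without regard to overlap with another. Among CpG-rich promoters, the ETS motif CCGGAAG was present in 22.9% of acetylated and 5.65% of bare ones (12% of all promoters), the NRF1 motif in 14.9% and 4.71% (6.61% of all) and the YY1 motif AAGATGGC in 6.23% and 0.808% (3.38% of all). The GC box GGGCGG did not separate them, at 75.5% and 72.7% (45.9% of all). Among CpG-poor promoters the GC box was present in 25.2% of acetylated and 8.21% of bare ones, and TATAAA in 11.3% and 27.3% (14.4% of all). The homeodomain core TAATTA, which several beta cell factors bind, was present in 6.30% of acetylated and 8.73% of bare CpG-poor promoters, with overlapping intervals (4.80% of all), and the E-box CAGATGG of NEUROD1 in 9.32% and 6.81% (4.49% of all), also overlapping. A match is a string of letters in this window and no evidence of binding.

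Among 1005 microRNA hairpins 91 lay inside an interval and 484 (48.2%) within 10 kb of an interval. Mir375, the microRNA most associated with islets, lay inside an interval of chr1:74899953-74900909. Mir7b, also abundant in islets, lay 611 bp from an interval, Mir7-2 1748 bp and Mir7-1 7507 bp. Mir200c and Mir141, which maintain epithelial state, lay together inside the interval chr6:124717692-124719398, whereas the other cluster of the family, Mir200a, Mir200b and Mir429, had none within 10 kb. The neural Mir9-1, Mir9-3, Mir212 and Mir219a-1 lay inside intervals and Mir132 lay 24 bp from an interval. By list, 9 of 13 islet and endocrine, 7 of 9 neural, 2 of 5 epithelial, 2 of 5 blood, 3 of 5 pluripotent, 8 of 10 widespread and 1 of 7 vascular and mesenchymal hairpins had an interval within 10 kb. None had one among 4 muscle (Mir206, Mir208a, Mir208b and Mir499) and 2 liver hairpins (Mir192 and Mir194-1). These counts leave out listed hairpins with no position in the table used, among them Mir122, Mir1a-1, Mir133a-1, Mir124a-1, Mir150, Mir143 and Mir145a. The muscle, liver, neural, blood, and vascular and mesenchymal counts thus rest on part of their lists. Clustered hairpins were counted separately. The 3 pluripotent (Mir302a, Mir302b, Mir367) and the 2 blood hairpins (Mir144, Mir451a) had the same nearest interval within each list. So had the islet Mir182, Mir183 and Mir96 and the widespread Mir25, Mir93 and Mir106b. The widespread Mir17 and Mir20a also had the same nearest interval, as had the neural Mir132 and Mir212. Mature sequences are shown for hairpins in or near an interval, with the seed (bases 2 to 8) in capitals, from RefSeq. For Mir375 only the 5p arm was listed, so that the 3p arm and its seed are not shown.
mmu-miR-375-5p: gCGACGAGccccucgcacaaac
mmu-miR-7b-5p: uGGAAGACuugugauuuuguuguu
mmu-miR-9-5p: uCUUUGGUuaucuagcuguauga
mmu-miR-132-3p: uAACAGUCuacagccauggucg
mmu-miR-212-3p: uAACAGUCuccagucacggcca
mmu-miR-200c-3p: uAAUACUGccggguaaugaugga
mmu-miR-141-3p: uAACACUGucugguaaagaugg
The miR-132 and miR-212 arms share their seed, and those of miR-200c and miR-141 differ from each other.

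Between intervals lay 364 stretches of over 1 Mb, 586 Mb in all, which wholly contained 1942 genes. Of these, 564 were olfactory and 214 vomeronasal receptor genes. The longest, 4.67 Mb on chromosome 8, contained no protein-coding gene, and one of 4.26 Mb on chromosome 7 contained 34, among them Grm5, Tyr and Nox4. By chromosome, the share of genes with an acetylated promoter ran from 40.8% on X and 42.5% on chromosome 7, which holds many olfactory receptor genes, to 63.8% on chromosome 12, and intervals per gene from 1.17 on X to 2.60 on chromosome 12.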

How the data were processed

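H3K27ac ChIP-seq of 1 wild-type MIN6 clone (75 bp single-end reads, per the labels' protocols) gave the deposited interval list used here. Per the submitters' processing notes, MACS2, bcl2fastq and the build mm10 were used. For the aligner, the control, the threshold and the versions, nothing is given in the sources used here. The authors deposited, per interval, a score, a fold enrichment at the summit, and −log10 p and −log10 q values. The read total is unknown, so depth per value is given only as reads at a summit. The deposited score was −log10 q multiplied by 10, as an integer, in 41489 of 41490 intervals. Names of the wild-type intervals carry an extra tag of unknown meaning, so the genotype rests on the labels. From the knockout lists only the number of intervals, that is of deposited scores, was taken.

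Coordinates are 1-based on mm10; gene names, positions, promoters and microRNAs came from RefSeq tables on GRCm38.p6, the assembly of mm10. All protein-coding symbols of the gene lists were matched; some listed microRNAs had no position and were left out. A gene's promoter was 1 kb either side of any listed start, or of both ends where no start was listed. Each interval went to the gene with a start within 1 kb, else to the gene it lay in, else to the nearest start within 100 kb. CpG ratios, motifs and coverage profiles used genes with a single listed start. The recovery of summit reads assumed that fold is (reads + 1) divided by (background + 1) and that p is a Poisson tail. Overlap code was tested on simulated data. Python 3.11.15, pandas 2.3.3, numpy 2.4.6, scipy 1.17.1 and matplotlib 3.10.9 were used.

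The members and gene lists were chosen with earlier results of these data known, and the microRNA lists and the families by symbol were written after the files were seen. Named are, apart from some genes that are not reported here, all members of the beta cell factor, granule, glucose sensing, alpha, and delta, PP and epsilon lists; the 20 genes with the most acetylated bases; the 10 with the most intervals, the widest promoter interval or the highest fold there; and, in other lists, the 3 with the most bases and the acetylated or bare members where these were 5 or fewer. Other named genes were chosen after their values were seen. Alternatives changed the promoter window, the q threshold, the overlap and the assignment.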

Additional observations from a re-analysis of the deposited data

Results flagged for a closer look

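The description left out chromosome Y, where the wild-type list holds 33 intervals, above the 3 that a count of 0 allows. They cover 14642 bp, and 28 of them lie beyond 90 Mb, at the end of the chromosome. Their median width was 382 bp and their median fold enrichment 3.34, below the 5.67 of the intervals described.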

How the results depend on the processing

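The share of genes with an acetylated promoter, 53.9%, was 52.8% with 500 bp and 55.8% with 2500 bp either side of the start, 52.1% with a −log10 q of at least 10, 47.8% with a −log10 q at or above the median, and 54.7% over genes with a listed start only, an alternative chosen after seeing the data. An overlap of at least 200 bp left it within its counting interval. The share of intervals at a promoter, 38.0%, was 35.9%, 40.9%, 46.0% and 58.3% under the first 4 of these and 37.3% with an overlap of at least 200 bp. The median acetylated bases per gene, 703 bp, were 709 bp with every interval at its nearest start, 1078 bp for the gene and 10 kb either side, 622 bp with a −log10 q of at least 10 and 449 bp at or above the median. Of 37 lists, 26 kept a share within the interval of the main value at or above the median −log10 q, and 35 or 36 under each other setting. Of the 20 genes with the most bases, 16 were still among the 20 highest for the gene and 10 kb either side, 17 and 14 under the stricter q thresholds, and 5 with every interval at its nearest start. The causes were not tested. No paired analysis was possible because there is 1 library in each group. The single clone, the single library, the unknown read total and the gene ends used in place of missing starts limit all values, and a bare promoter means that no interval was listed there.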
